A study of Schizosaccharomyces pombe with 8 samples.

Results

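The genes hsp3101, hsp3102, hsp3103, hsp3104 and hsp3105 are the fission yeast members of the DJ-1 family that carry a numbered hsp31 symbol, and they make up 5 of the 7092 genes in the deposited files. They were found by gene symbol, which kept out antisense RNAs named after them. The family was selected on measured values, the H2O2 ratios of hsp3101 in these same files, so the values below are a description and are not independent support for a response of the family. The fission yeast Schizosaccharomyces pombe was grown to mid-log phase in rich medium, and 8 libraries, 2 in each of 4 groups, were made with a stranded poly(A) kit. The groups were a strain labelled ∆wee1 (h- wee1::ura4+ leu-32 ura4-D18) after 15 min in 20 mM H2O2, the same strain untreated, wild type (h- leu1-32 ura4-D18) after the same dose, and wild type untreated. Both strains therefore lack the normal ura4 gene and carry a leu1 mutation. The gene under test is wee1, which encodes a kinase that delays mitosis. Only the ∆wee1 label carries ura4+, inserted at wee1, so the strains differ in ura4 as well as in wee1. In every strain comparison below the parts of wee1 and ura4 cannot be told apart.

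DJ-1 proteins are small proteins built around a cysteine that oxidants readily modify, and they are named after human DJ-1, whose loss causes an inherited form of Parkinson disease. Several of them act as glyoxalases that turn methylglyoxal, a toxic by-product of glycolysis, into lactate without glutathione, whereas the classical pair of glyoxalases uses glutathione. In budding yeast the relative Hsp31 has also been described as a chaperone. The deposited annotation calls the products of hsp3101 and hsp3102 glutathione-independent glyoxalases, those of hsp3103 and hsp3104 probable ones and that of hsp3105 a putative one.

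Levels are in FPKM, a fragment number corrected for the length of the transcript and the size of the library, which lets genes be compared with each other. The files hold 1 FPKM value per group, in which the authors combined both libraries, so no spread between libraries can be shown and the read depth is unknown. Changes are given as the log2 ratio of FPKM + 1, a scale that compresses the changes of weakly expressed genes, with ± the standard error (SE) implied by the authors' deposited table of comparisons. A gene is said to have risen, or to be higher or lower, only where the authors' deposited table lists it at a q-value under 0.05. GEO's design text calls the libraries of a group biological replicates. All 5 genes passed the filter on low values, a mean of at least 1 FPKM over the groups.

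The strain labels were checked first. The wee1 transcript stood at 15.5 FPKM after H2O2 and 16.1 FPKM untreated in the ∆wee1 label, against 8.17 FPKM after H2O2 and 8.91 FPKM untreated in wild type. It was thus higher under the deletion label, so strain directions are those of the labels, not of a checked deletion. The ura4 gene, inserted at wee1, stood at 235 and 185 FPKM in the ∆wee1 label, against 0.0704 and 0.131 FPKM in wild type, as the labels state. The pools also differed in make-up, since ribosomal RNA held 22.2% of the summed FPKM in H2O2-treated wild type and from 3.13% to 10.9% in the other groups; its part in the results below was not tested.

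The levels of the 5 genes in untreated cells spread widely. In untreated wild type hsp3104 stood at 141 FPKM, above 82.7% of the 4949 nuclear protein-coding genes measured. It was followed by hsp3103 at 26.5 FPKM, above 38.9% of these genes, and hsp3101 at 12.6 FPKM, above 16.4%. The lowest were hsp3102 at 3.09 FPKM and hsp3105 at 2.02 FPKM, above 3.60% and 2.51%. On the log2 scale the level of hsp3103 was higher than that of hsp3101 by 1.02 ± 0.40, whereas hsp3101 and hsp3102 differed by 1.73 ± 1.83 and hsp3102 and hsp3105 by 0.44 ± 1.82, less than the error. In the untreated ∆wee1 label the order was hsp3104 (126 FPKM), hsp3101 (34.9 FPKM), hsp3103 (31.0 FPKM), hsp3105 (4.83 FPKM) and hsp3102 (3.32 FPKM), with hsp3101 above 47.1% of genes. There hsp3101 and hsp3103 differed in level by 0.17 ± 0.28 on the log2 scale, and hsp3105 and hsp3102 by 0.43 ± 1.24, both within the error. After H2O2 the order in both strains was hsp3104, hsp3101, hsp3103, hsp3102 and hsp3105. The step from hsp3103 to hsp3102 was 3.07 ± 0.92 in the treated ∆wee1 label and 2.15 ± 1.23, within 2 SE, in treated wild type, and the step from hsp3102 to hsp3105 was within 2 SE in both.

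**Figure D1:**
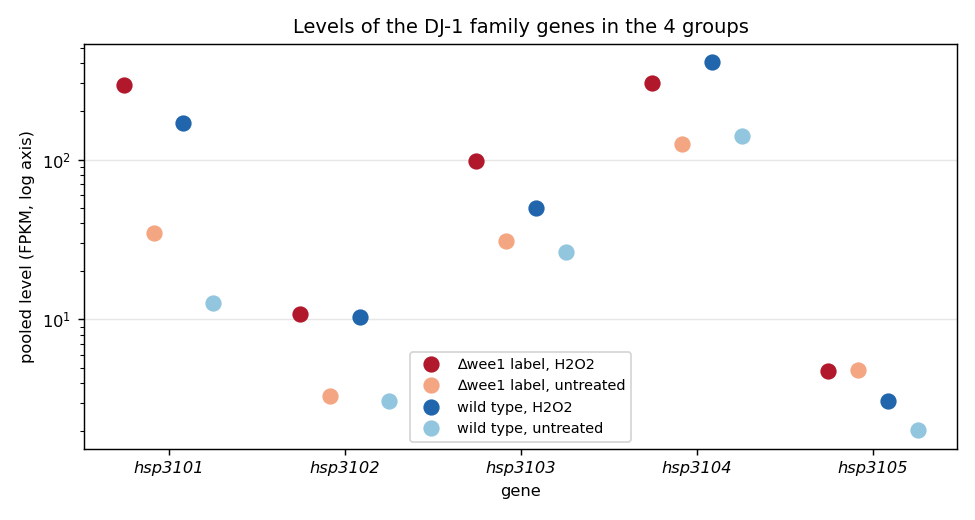
Pooled FPKM (log axis) of each of the 5 genes in the 4 groups, 1 point per group with no error bar, since both libraries are combined. For hsp3101, hsp3102, hsp3103 and hsp3104 both H2O2 points lie above both untreated points. The points of hsp3105 lie between 2.02 and 4.83 FPKM, with both of the ∆wee1 label above both of wild type.

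After 15 min of H2O2 the family's summed level was 707 FPKM in the ∆wee1 label, against 200 FPKM untreated, and 637 FPKM in wild type, against 185 FPKM untreated. The genes hsp3101, hsp3103 and hsp3104 rose in both strains per the authors' deposited table. The authors' deposited table lists 3 of the 5 genes as up in the ∆wee1 label, where 5.34% of 6312 tested genes were up. The authors' deposited table lists the same number, 3 of 5, in wild type, where 6.96% of 6277 tested genes were up. None was down in either strain, where 4.13% of genes in the ∆wee1 label and 7.47% in wild type were down. Since the family was chosen for this response, nothing is read from these shares. The median log2 ratio of the 5 genes was 1.45 in the ∆wee1 label and 1.47 in wild type, against -0.0079 and 0.022 over all genes tested. Both medians are the values of hsp3102, which was not called.

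The gene hsp3101 (SPCC757.03c, chromosome III, deposited locus 46987 to 48882) had the widest range of the family. It stood at 294 FPKM after H2O2 and 34.9 FPKM untreated in the ∆wee1 label, and at 168 FPKM after H2O2 and 12.6 FPKM untreated in wild type. Treated cells of either strain thus lay far above untreated cells of both. Its rise was 8.43-fold in the ∆wee1 label (log2 ratio 3.04 ± 0.28) and 13.4-fold in wild type (3.64 ± 0.40), both listed in the authors' deposited table at a q-value of 0.00082. Among the 4949 nuclear protein-coding genes its log2 ratio ranked as number 6 in the ∆wee1 label and number 4 in wild type.

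The gene hsp3103 (SPBC947.09, chromosome II, 656117 to 657873) was the only one whose deposited locus holds no other gene. It stood at 98.2 FPKM after H2O2 and 31.0 FPKM untreated in the ∆wee1 label, and at 49.6 FPKM after H2O2 and 26.5 FPKM untreated in wild type. The untreated levels were close, and the treated level was higher in the ∆wee1 label. Its rise was 3.17-fold in the ∆wee1 label (1.63 ± 0.22) and 1.87-fold in wild type (0.88 ± 0.22), so in wild type it did not reach 2-fold. With 2-fold required as well, 2 of the 5 genes were up in wild type, where 3.23% of all genes were.

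The gene hsp3104 (SPAC11D3.13, chromosome I, 130148 to 135926, a locus of 4 genes) stood at 299 FPKM after H2O2 and 126 FPKM untreated in the ∆wee1 label. In wild type it stood at 406 FPKM after H2O2 and 141 FPKM untreated. It was the most abundant member in every group, although in the treated ∆wee1 label it exceeded hsp3101 by only 0.025 ± 0.23 on the log2 scale. Its rise was 2.38-fold in the ∆wee1 label (1.24 ± 0.24) and 2.88-fold in wild type (1.52 ± 0.23). Rescaled to the sum of nuclear protein-coding genes, the log2 ratios were 1.11 in the ∆wee1 label and 1.27 in wild type. Under quantile normalization they were 1.11 and 1.29.

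The gene hsp3102 (SPAC5H10.02c, chromosome I, 140381 to 155583) stood at 10.8 FPKM after H2O2 and 3.32 FPKM untreated in the ∆wee1 label, and at 10.4 and 3.09 FPKM in wild type. The treated values are about the same in both strains and so are the untreated ones. Its fold of 3.25 in the ∆wee1 label and 3.35 in wild type exceeded those of hsp3104, but the authors' deposited table does not list it, at q-values of 0.689 and 0.685. The error was wide, with log2 ratios of 1.45 ± 1.52 in the ∆wee1 label and 1.47 ± 2.17 in wild type. Its locus holds 12 annotated genes, the most of any member, among them a 5S ribosomal RNA and an antisense RNA over hsp3102 itself. The values therefore show neither a change nor its absence.

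The gene hsp3105 (SPAC1F7.06, chromosome I, 4230528 to 4232976) stood at 4.78 FPKM after H2O2 and 4.83 FPKM untreated in the ∆wee1 label, and at 3.10 and 2.02 FPKM in wild type. Both levels of the ∆wee1 label lay above both of wild type, but only the untreated strain difference was called. After H2O2 that difference was 0.49 ± 0.44. The log2 ratios to H2O2 were -0.01 ± 0.35 in the ∆wee1 label, a sign that turned to 0.03 under quantile normalization, and 0.44 ± 0.46 in wild type, and neither is listed in the authors' deposited table.

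**Figure D2:**
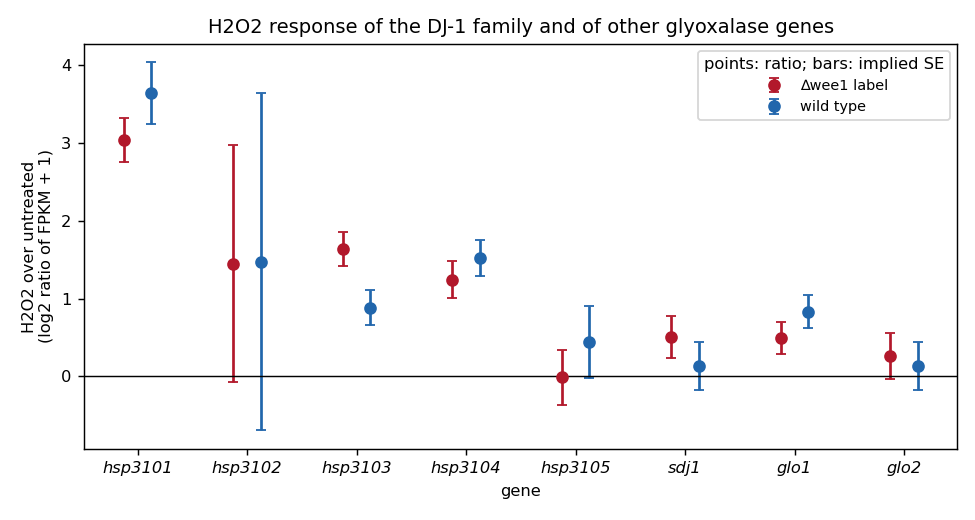
Log2 ratio of FPKM + 1, H2O2 over untreated, with bars of ± 1 implied SE, for the 5 genes and for sdj1, glo1 and glo2, in the ∆wee1 label and in wild type. The points of hsp3101 lie at 3.04 and 3.64, those of hsp3103 and hsp3104 between 0.88 and 1.63, and the bars of hsp3102 reach below 0 in both strains.

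With the treatment the family's make-up moved towards hsp3101. This follows from the large H2O2 ratios of hsp3101, on which the family was selected, so it is a description only. In the ∆wee1 label hsp3101 held 41.6% of the family's summed FPKM after H2O2 and 17.5% untreated, and in wild type 26.4% after H2O2 and 6.81% untreated. The share of hsp3104 was 42.3% after H2O2 and 63.0% untreated in the ∆wee1 label, and 63.7% after H2O2 and 76.1% untreated in wild type. Shares of hsp3103 lay between 7.78% and 15.5%. The genes hsp3102 and hsp3105 each held at most 2.41% in any group. These are shares of RNA, not of protein or of enzyme activity.

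**Figure D3:**
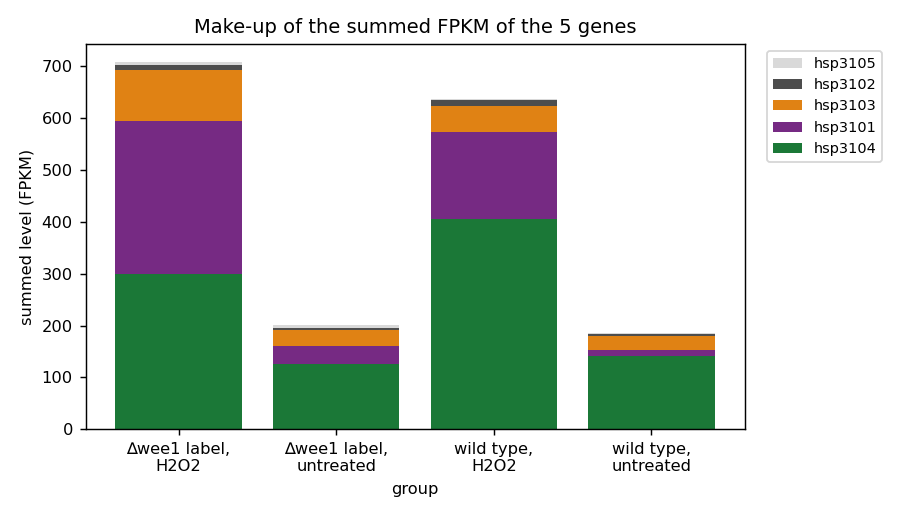
Summed FPKM of the 5 genes in each group, stacked by gene, for the ∆wee1 label (H2O2, untreated) and wild type (H2O2, untreated). The treated bars reach 707 and 637 FPKM, and the segments of hsp3101 and hsp3104 are nearly equal in the treated ∆wee1 label.

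Between the strains, untreated cells of the ∆wee1 label had more hsp3101, which was 2.77-fold higher than in wild type (log2 ratio 1.40 ± 0.43, q-value of 0.0034 in the authors' deposited table). The weakly expressed hsp3105 was 2.39-fold higher (0.95 ± 0.37, q-value of 0.019 in the authors' deposited table), a log2 ratio that became 0.49 with a pseudocount of 5 FPKM. The authors' deposited table thus lists 2 of the 5 genes as higher in the untreated ∆wee1 label, where 4.64% of 6292 tested genes were higher. The others were not called, at 0.08 ± 2.17 for hsp3102, 0.22 ± 0.23 for hsp3103 and -0.16 ± 0.23 for hsp3104. The median over the 5 genes was 0.22, against 0.039 over all genes tested.

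After H2O2, hsp3101 was 1.75-fold higher in the ∆wee1 label than in wild type (0.80 ± 0.23) and hsp3103 was 1.98-fold higher (0.97 ± 0.21). The authors' deposited table lists both at a q-value of 0.00082, and so 2 of the 5 genes were higher in treated cells, where 6.51% of 6333 tested genes were higher. On the deposited scale none of the 5 was at least 2-fold higher, as 1.96% of all genes were. Rescaled to the sum of nuclear protein-coding genes, which held 93.5% of the summed FPKM in the treated ∆wee1 label and 73.2% in treated wild type, the log2 ratios were 1.11 for hsp3101, 1.28 for hsp3103 and -0.13 for hsp3104, so that hsp3101 and hsp3103 then exceeded 2-fold. For hsp3104 the log2 ratio was -0.44 ± 0.24, not called at a q-value of 0.0635 in the authors' deposited table, and hsp3105 (0.49 ± 0.44) and hsp3102 (0.05 ± 1.52) were not called either. The median over the 5 genes was 0.49, against 0.034 over all genes tested, and lay between 0.26 and 0.73 under other scalings and pseudocounts.

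Whether the H2O2 response itself differed between strains was tested per gene with a two-sided normal z test on the difference of log2 ratios, ∆wee1 label minus wild type, over 6108 genes. It called none of the 5 genes after Benjamini-Hochberg adjustment and 0.311% of all genes, and 1 member, hsp3103, had an unadjusted p under 0.05. For hsp3103 the response was larger in the ∆wee1 label by 0.75 ± 0.31, with an unadjusted z-test p of 0.0157 that became 1.0 after adjustment. For hsp3101 the difference was -0.60 ± 0.49, for hsp3104 -0.28 ± 0.33 and for hsp3105 -0.45 ± 0.58. The z values over these genes had a robust SD of 0.451, so the test is strict and its p-values are not calibrated. A difference of response is thus not shown for any member by this test, and a p that misses the threshold does not show that the responses were alike.

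**Figure D4:**
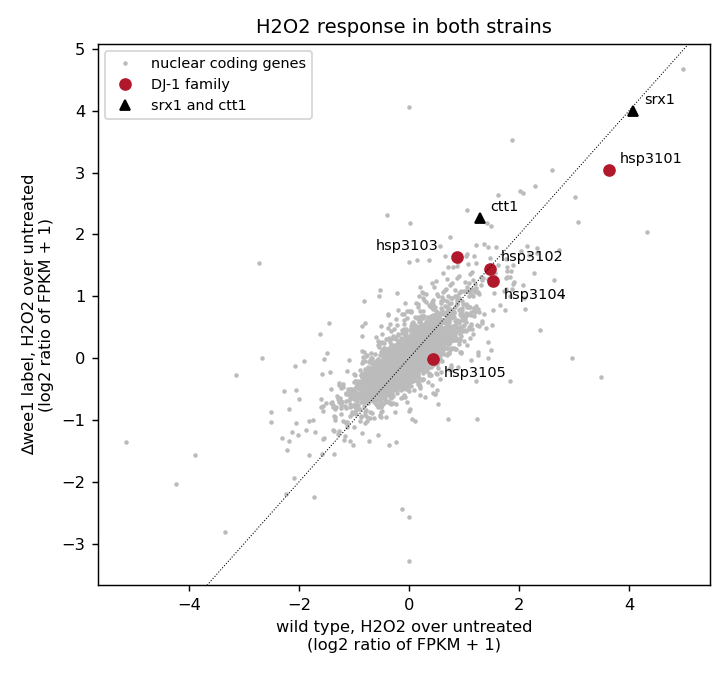
Log2 ratio of FPKM + 1, H2O2 over untreated, in the ∆wee1 label (vertical) against wild type (horizontal) for 4949 nuclear protein-coding genes, with the 5 DJ-1 family genes in red and srx1 and ctt1 as triangles. The dotted line marks equal response; hsp3101 lies near srx1 at the upper right, and hsp3105 lies within the main cloud.

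Of 3 further genes, the glyoxalase genes glo1 and glo2 and the DJ-1 relative sdj1, only glo1 was called after H2O2. Over all tested genes 5.34% were up in the ∆wee1 label and 6.96% in wild type. The product of sdj1 is a further DJ-1 protein outside the hsp3101 to hsp3105 numbering. It stood at 163 FPKM after H2O2 and 115 FPKM untreated in the ∆wee1 label, and at 80.2 and 72.8 FPKM in wild type. Its H2O2 ratios were not called (0.51 ± 0.27 in the ∆wee1 label and 0.14 ± 0.31 in wild type), but it was higher in the ∆wee1 label than in wild type, by 1.02 ± 0.28 after H2O2 and 0.65 ± 0.31 untreated. Of the classical pair, glo1, the glutathione-dependent first enzyme, rose in both strains, by 0.49 ± 0.21 in the ∆wee1 label and 0.83 ± 0.21 in wild type. The second enzyme's gene, glo2, was not called (0.26 ± 0.29 and 0.13 ± 0.30).

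Other stress genes give a scale for these changes. Over all tested genes 5.34% were up in the ∆wee1 label and 6.96% in wild type, and 4.13% and 7.47% were down. The genes named from each list were picked for the largest H2O2 ratios in it, so they are not typical of the list. Of 10 genes that depend on Pap1, a peroxide-sensing transcription factor, the authors' deposited table has 8 up in the ∆wee1 label and 7 in wild type, with medians of 0.82 and 0.89, against -0.033 and -0.031 over nuclear protein-coding genes. Among them srx1, the sulfiredoxin, rose by 3.99 ± 0.57 in the ∆wee1 label and 4.07 ± 0.72 in wild type. The catalase ctt1 rose by 2.26 ± 0.22 and 1.29 ± 0.22. Of 12 genes of the stress kinase Sty1 and its factor Atf1, with ctt1 again among them, 9 rose and 1 fell in the ∆wee1 label and 6 of 11 tested rose in wild type, per the authors' deposited table, with medians of 0.88 and 0.64. In this list lsd90 rose by 2.64 ± 0.22 in the ∆wee1 label and 1.63 ± 0.22 in wild type. Of 18 chaperone genes the authors' deposited table has 8 up in the ∆wee1 label and 10 in wild type, with medians of 0.53 and 0.64. The small heat shock gene hsp16 rose by 0.68 ± 0.25 and 1.18 ± 0.24, and psi1, a DnaJ-type protein, by 1.09 ± 0.23 and 1.19 ± 0.23. In the same list cdc37 rose in wild type (1.24 ± 0.44) but was not called in the ∆wee1 label (0.53 ± 0.40).

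Among 4101 nuclear genes with a symbol and at least 5 FPKM in their highest group, the one whose profile over the 4 groups was nearest to that of hsp3101 was srx1, at a Euclidean distance of 0.74 log2 units. It stood at 736 FPKM after H2O2 and 45.3 FPKM untreated in the ∆wee1 label, and at 363 and 20.6 FPKM in wild type. Next came the antisense RNA mug93-antisense-1 at 0.87 and the small nucleolar RNA snR10 at 0.95. The H2O2 ratios of snR10 were not called in either strain, and that in the ∆wee1 label was 2.66 ± 1.24. No other member was that near to hsp3101, hsp3102 being the closest at 2.16. Within the family hsp3102 and hsp3104 had the most similar profiles, at 0.39. The H2O2 ratios of hsp3102 have errors of 1.52 in the ∆wee1 label and 2.17 in wild type, wider than 0.39. Its nearest profiles are therefore uncertain. The profile of hsp3102 was nearest to those of etr1 (0.11), SPAC11D3.14c-antisense-1 (0.15) and dmc1-antisense-1 (0.17). Of these, SPAC11D3.14c-antisense-1 lies in the deposited locus of hsp3104 and rose in both strains, by 1.28 ± 0.47 in the ∆wee1 label and 1.35 ± 0.54 in wild type. That of hsp3103 was nearest to mei4 (0.20), SPAC824.04-antisense-1 (0.23) and rep1 (0.27). Of these, mei4 and SPAC824.04-antisense-1 reached 5 FPKM in the treated ∆wee1 label alone, the group where hsp3103 was highest, at 8.47 and 8.60 FPKM, and so could pass the minimum only through it. The profile of hsp3104 was nearest to prl42 (0.18), ist1-antisense-1 (0.27) and cia2 (0.27). Of these, prl42 and ist1-antisense-1 were not called after H2O2 in either strain, with errors from 0.96 to 1.54. That of hsp3105 was nearest to mas2-antisense-1 (0.07), put4-antisense-1 (0.15) and sap1 (0.16). For every gene named as nearest to hsp3102, hsp3103, hsp3104 or hsp3105, the errors of both H2O2 ratios were wider than its distance. All these nearest profiles are therefore uncertain. With 4 groups, such likeness is a description only.

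The proteins, as sequences in the deposited annotation, are 222 to 261 residues long. The closest pair is hsp3101 and hsp3102, identical at 59.2% of aligned positions. The H2O2 ratios of this pair were 3.04 ± 0.28 and 1.45 ± 1.52 in the ∆wee1 label, and 3.64 ± 0.40 and 1.47 ± 2.17 in wild type. The products of hsp3103 and hsp3104 are 48.3% and 44.6% identical to that of hsp3101. The product of hsp3105, the member with the lowest H2O2 ratios, is the most distant, at 28.2% to 32.2% identity with the others.

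Promoter windows are shown for the 3 members that rose and for srx1, the gene nearest in profile to hsp3101. Each is the 250 bases before the RefSeq transcript start in assembly ASM294v3, read along the gene's strand, and the capitals mark matches to the searched motifs. The hsp3101 window (III:48502-48751, minus strand) also lies inside the annotated span of the RNA antisense to hsp3101. The others are II:657788-658037 (hsp3103, minus strand), I:129920-130169 (hsp3104, plus strand) and II:377013-377262 (srx1, minus strand).
hsp3101: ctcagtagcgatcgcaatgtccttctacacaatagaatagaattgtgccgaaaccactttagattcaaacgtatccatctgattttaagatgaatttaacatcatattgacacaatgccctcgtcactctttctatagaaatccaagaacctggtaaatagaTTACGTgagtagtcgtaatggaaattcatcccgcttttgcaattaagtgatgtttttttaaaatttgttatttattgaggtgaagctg
hsp3103: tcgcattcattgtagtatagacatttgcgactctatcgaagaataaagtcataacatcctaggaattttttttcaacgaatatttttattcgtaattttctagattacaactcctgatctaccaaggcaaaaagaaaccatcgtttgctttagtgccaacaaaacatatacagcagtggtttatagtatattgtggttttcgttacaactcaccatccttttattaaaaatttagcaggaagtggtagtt
hsp3104: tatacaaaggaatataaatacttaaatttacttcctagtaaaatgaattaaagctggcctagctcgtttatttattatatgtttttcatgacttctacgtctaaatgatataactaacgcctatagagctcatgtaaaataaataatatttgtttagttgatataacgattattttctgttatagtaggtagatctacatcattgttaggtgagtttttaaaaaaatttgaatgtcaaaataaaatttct
srx1: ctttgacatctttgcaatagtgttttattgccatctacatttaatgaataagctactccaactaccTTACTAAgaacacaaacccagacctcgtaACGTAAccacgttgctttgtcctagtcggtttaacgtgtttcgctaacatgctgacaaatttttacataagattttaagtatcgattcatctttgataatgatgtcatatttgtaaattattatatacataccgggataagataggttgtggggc

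On both strands of these windows and those of hsp3102 and hsp3105, whose transcript starts RefSeq marks as incomplete, no match was found in any of the 5 members to TGACGT (core of Atf1 sites), TTACGTAA or TTACTAA (AP-1-like sites), or to GAANNTTC or TTCNNGAA (parts of heat shock elements). Of 5112 coding-gene windows of this length, 5.52% hold TGACGT, 0.469% TTACGTAA, 10.7% TTACTAA, 9.49% GAANNTTC and 8.35% TTCNNGAA. The srx1 window holds TTACTAA. The windows of ctt1 and sdj1 were searched as well. That of ctt1 holds TGACGT, and that of sdj1, a DJ-1 gene not called after H2O2, holds TGACGT and TTCNNGAA. The shorter TTACGT, which overlaps TTACGTAA and was added after the windows had been read, occurs once in hsp3101, from 88 to 83 bases before the start, and once in srx1 as its reverse complement. It occurs in 13.0% of all windows, and no match says only that these letters are not in the window.

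The nearest annotated genes beside hsp3101, hsp3103 and hsp3104 had H2O2 ratios from -0.60 to 0.12, and none of them rose. Since only 5.34% of all tested genes rose in the ∆wee1 label and 6.96% in wild type, nothing is read from this. However, SPAC11D3.14c-antisense-1, which lies in the deposited locus of hsp3104 but was not counted as its nearest gene, rose in both strains. Its ratios were 1.28 ± 0.47 in the ∆wee1 label and 1.35 ± 0.54 in wild type. The antisense RNA over hsp3101 stood at 29.2 FPKM after H2O2 and 37.2 FPKM untreated in the ∆wee1 label, and at 53.4 and 53.9 FPKM in wild type. In untreated wild type it was thus above hsp3101 itself, which had 12.6 FPKM. Its H2O2 ratios were -0.34 ± 0.52 in the ∆wee1 label and -0.01 ± 0.34 in wild type, neither called. The kit keeps strand, but no source read for this work says whether the authors' counting used it, so reads of such pairs may not be fully separated.

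Beside hsp3103, dsc1 was not called in either strain, and hip4 was lower after H2O2 in wild type (-0.60 ± 0.24) and not called in the ∆wee1 label (-0.33 ± 0.24). Beside hsp3104, SPAC11D3.11c and the overlapping SPAC11D3.14c had ratios between -0.29 and 0.12. The RNA antisense to hsp3102 stood at 39.6 FPKM after H2O2 and 9.83 FPKM untreated in the ∆wee1 label, and at 53.5 and 26.7 FPKM in wild type, above hsp3102 in every group and with ratios of 1.91 ± 2.40 and 0.97 ± 2.29. On its other side SPAC5H10.01 was not called, at -0.15 in both strains. The RNAs beside hsp3105, hsp3105-antisense-1 and SPNCRNA.243, stood at 0.16 to 3.88 FPKM. The H2O2 ratios of SPNCRNA.243 were 0.75 ± 0.67 in the ∆wee1 label and 0.51 ± 0.61 in wild type. Those of hsp3105-antisense-1 were 0.12 and -0.60, and none of these was called.

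The coding neighbours of hsp3105, looked up after its strain difference was seen, are cdc22, a ribonucleotide reductase subunit, and fip1, an iron permease. In untreated cells both were higher in the ∆wee1 label than in wild type, cdc22 by 1.05 ± 0.22 and fip1 by 1.72 ± 0.25, beside 0.95 ± 0.37 for hsp3105. After H2O2 both were still higher (1.19 ± 0.22 and 1.38 ± 0.27), whereas hsp3105 was not called. Among the coding neighbours of the other members only SPAC5H10.03, beside hsp3102, was called between strains. It was lower in the ∆wee1 label, by -1.10 ± 0.27 untreated and -1.20 ± 0.27 after H2O2. A shared cause was not tested.

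**Figure D5:**
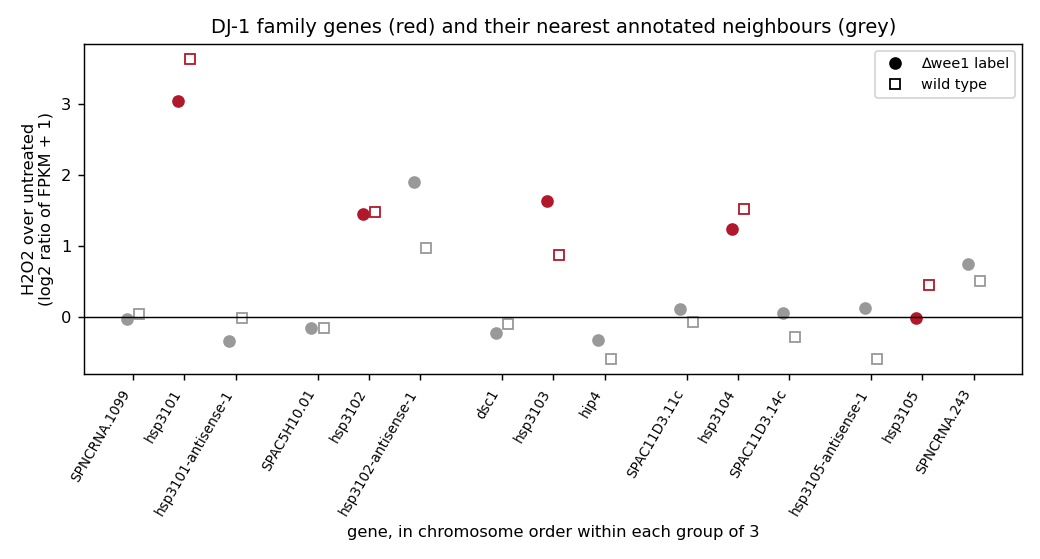
Log2 ratio of FPKM + 1, H2O2 over untreated, of each member (red) and of the nearest annotated gene on each side (grey), in the ∆wee1 label (filled circles) and wild type (open squares). The neighbours of hsp3101, hsp3103 and hsp3104 lie between -0.60 and 0.12, below the members. Those of hsp3102 and hsp3105 lie between -0.60 and 1.91, and none of them was called. SPAC11D3.14c-antisense-1, which rose and lies in the deposited locus of hsp3104, is not shown.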

How the data were processed

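RNA of 8 libraries in 4 groups was measured. The tools were cutadapt, HISAT2 and Cuffdiff, per the submitters' processing notes. Tool versions, genome build and use of strand in counting: not given in the sources used here. Deposited by the authors were FPKM values, 1 per gene and group, and a table for 6 pairs of groups with log2 fold changes, a test statistic (a score), p-values and q-values, per the file headers. Its 2 columns that repeat FPKM values were not used. The lowest p-value in that deposited table is 5e-05.

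Log2 ratios used a pseudocount of 1 FPKM. The deposited fold change over its statistic gave the SE of each pair of groups, from which a variance per group was solved in 6111 genes and scaled to the pseudocount. The deposited p-values are smaller than their statistics give on the normal curve (normal deviate 1.42 times the statistic, median), so these errors are the wider reading. The z values of the response difference had a robust SD of 0.451, so that test is strict. No test across libraries (such as limma, foreseen for per-library values) was possible with pooled values. Depth is unknown, so no interval or floor that needs it was computed.

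The members, gene lists and rules were chosen with earlier results of these data known. Named genes are the members, strain markers and the list of glyoxalase genes with the DJ-1 relative sdj1. Also named are up to 4 genes per other list with the largest H2O2 ratios, the nearest gene on each side, and the 3 nearest profiles. Of the file's IDs, 6737 of 7092 matched RefSeq ASM294v3, used for names, gene order and promoters. Deposited loci are in the files' own coordinates. Protein identity came from global alignment (BLOSUM62) in Biopython 1.88. Alternatives tried were other pseudocounts, scalings, no filter and a 2-fold minimum.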

Additional observations from a re-analysis of the deposited data

How the results depend on the processing

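Calls come from the deposited q-values and do not depend on the pseudocount or scaling used here. The log2 ratios of hsp3101, hsp3103 and hsp3104 after H2O2 kept their sign under rescaling to the sum of nuclear protein-coding genes and under quantile normalization. A changed pseudocount or the lack of a filter cannot change the sign of a ratio, so those settings say nothing on this point. With at least 2-fold required as well, the count after H2O2 was 2 of 5 in wild type and 0 of 5 for the ∆wee1 label over wild type after H2O2, against 3 and 2. The wild-type median of the 5 genes was 0.93 with a pseudocount of 5 FPKM. Rescaling to the sum of nuclear protein-coding genes moved the median of these genes for the H2O2 response from -0.033 to -0.17 in the ∆wee1 label and from -0.031 to -0.27 in wild type. For the ∆wee1 label over wild type it moved from 0.050 to 0.35 after H2O2 and from 0.031 to 0.22 untreated. The members' median for the ∆wee1 label over wild type then became 0.73 after H2O2 (0.49 as deposited) and 0.41 untreated (0.22 as deposited); the median after H2O2 was 0.27 with a pseudocount of 5 FPKM and 0.26 under quantile normalization. Under rescaling the untreated ratio of hsp3104 turned to 0.04 and the response difference of hsp3102 to 0.0995 (from -0.03). Quantile normalization turned the strain ratios of hsp3102 to -0.03 untreated and -0.07 after H2O2. None of these was a called value; the cause was not tested. The z test called 0 members under every setting. No paired analysis was possible because each group has 1 combined value, and for the same reason no library could be left out.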

Other observations

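The catalase gene ctt1 lies 8 annotated genes away from hsp3101 on chromosome III, a neighbourhood noticed after the values had been seen. Both ends rose after H2O2, hsp3101 by 3.04 ± 0.28 in the ∆wee1 label and 3.64 ± 0.40 in wild type, and ctt1 by 2.26 ± 0.22 in the ∆wee1 label and 1.29 ± 0.22 in wild type. Of the 7 genes between them, the coding SPCC757.04 (-0.21 ± 0.27 in the ∆wee1 label, -0.37 ± 0.29 in wild type) and SPCC757.05c (-0.28 ± 0.30 and -0.24 ± 0.29) were not called. The coding SPCC757.06 stood at 0.48 FPKM in the treated ∆wee1 label and is listed at 0 in the other groups. In untreated cells the ends differed between strains in opposite directions, hsp3101 being higher in the ∆wee1 label than in wild type (1.40 ± 0.43) and ctt1 lower (-0.73 ± 0.21).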
